A study of Mus musculus with 4 samples.

Results

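The regions described here carried a called peak of acetylated histone H4 in untreated wt, LPS wt and LPS HDAC3 KO macrophages and no called peak in untreated HDAC3 KO macrophages. They were found by merging overlapping or touching peaks of the 4 peak lists, and they numbered 2156 of 62481 merged regions (3.45%). The cells were primary bone marrow-derived macrophages from C57BL/6 mice on day 7 of differentiation. The wt cells were heterozygous (HDAC3 +/-) and the HDAC3 KO cells homozygous null (HDAC3 -/-), so the comparison is of 1 functional copy with none. Each genotype was left untreated or given 100 ng/ml lipopolysaccharide (LPS) for 4 h. Chromatin was precipitated with an antibody to acetyl-histone H4 and sequenced, with 1 library for each of the 4 groups. How the gene was deleted, and how many animals entered a library, are not given in the sources used here.

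Acetylation of the histone H4 tail neutralises lysine charge, is recognised by bromodomain proteins and is found at active promoters and enhancers. HDAC3 is the catalytic deacetylase of the NCoR and SMRT corepressor complexes. LPS, from the outer membrane of Gram-negative bacteria, signals through the receptor TLR4 and induces inflammatory and interferon response genes in macrophages.

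The selection used the calls of all 4 libraries, so the calls, scores and lengths below describe the regions and test nothing. With 1 library per group there was no spread between replicates and no test between conditions. The lists held 39550 to 48706 peaks, covering 35.4 to 50.4 Mb. Untreated wt had the most peaks, 48706, against 41956 in untreated HDAC3 KO. Read depth was unknown. A peak's score is the value the authors' peak caller gave it. It started at 50.0 in every list and is not comparable between lists, so it is also given as a percentile, the percent of peaks in the same list that scored no higher, with ties at their mean rank. Where a library had several peaks in a region, the region took their highest score and percentile. A region with no call may hold signal under the calling threshold.

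Of the 19983 regions called in the other 3 libraries, 2156 (10.8%) had no call in untreated HDAC3 KO. The exact 95% interval of this share was 10.4 to 11.2%. The same share was 5.17% (972 of 18799 regions, 4.86 to 5.50%) for untreated wt, 12.9% (2647 of 20474, 12.5 to 13.4%) for LPS wt and 5.24% (986 of 18813, 4.93 to 5.57%) for LPS HDAC3 KO. The share for untreated HDAC3 KO lay above that for untreated wt and below that for LPS wt. These intervals cover counting error only, and neighbouring regions are not independent. The gap between the untreated libraries was smaller when the lists were made equal in length. When every list was cut to the 39550 peaks of the shortest, the shares were 8.86% for untreated HDAC3 KO and 7.12% for untreated wt. Cut further to the 20000 peaks scored highest, the lists gave 8.60 and 8.46%. With only peaks from each list's median score up, lengths stayed unequal and the shares, in the same order, were 10.1 and 5.24%. They were 15.98 and 14.2% where peaks had to cover at least 50% of a region. With no peak of the uncalled library within 5000 bp they were 6.23 and 1.90%.

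The regions ranked low among the peaks of untreated wt and higher among those of both LPS libraries. In untreated wt their scores ran from 50.0 through a median of 85.0 to 556, and 1342 of the 2156 (62.2%) scored under 100. In LPS wt the lowest, median and highest scores were 50.0, 151 and 3100. In LPS HDAC3 KO they were 50.0, 145 and 3186. On the percentile scale the median region stood at 35.6 in untreated wt, 52.1 in LPS wt and 49.9 in LPS HDAC3 KO. The regions thus lay in the lower part of the untreated wt list and near the middle of both LPS lists. Where a library counted as called only if its peaks covered at least 50% of the region, the medians were 59.1, 59.6 and 57.5. That rule gave 2057 regions, of which 939 were among the 2156, and 1118 overlapped a listed untreated HDAC3 KO peak. It leaves out regions whose untreated wt peaks cover less than 50%, so these values do not describe the 2156 regions. With lists cut to 39550 peaks the medians were 44.4, 55.1 and 54.1, and with the 20000 peaks scored highest they were 71.5, 76.9 and 75.6. These percentiles were still ranks in the full lists, so they rise as low-scored peaks are dropped. A percentile also depends on list length, and these values do not show by how much. Regions called in all 4 libraries had median percentiles of 77.9, 71.5, 74.2 and 75.5 in untreated wt, LPS wt, untreated HDAC3 KO and LPS HDAC3 KO. Of these 17827 regions, 7478 held several untreated wt peaks, against 320 of the 2156. The highest peak was taken, so the sets are not on equal terms.

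The mirror set, uncalled only in untreated wt, had a like profile. Its 972 regions had median percentiles of 30.4 in untreated HDAC3 KO, 39.1 in LPS wt and 55.3 in LPS HDAC3 KO. Both sets were weakest in the one untreated library that called them. With LPS, the set uncalled only in untreated HDAC3 KO had median percentiles of 52.1 in wt and 49.9 in HDAC3 KO, while the mirror set ranked higher in HDAC3 KO than in wt. Regions called in all 4 libraries also ranked higher in LPS HDAC3 KO than in LPS wt, at 75.5 and 71.5. These differences in rank between lists of unequal length were not tested.

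**Figure D1:**
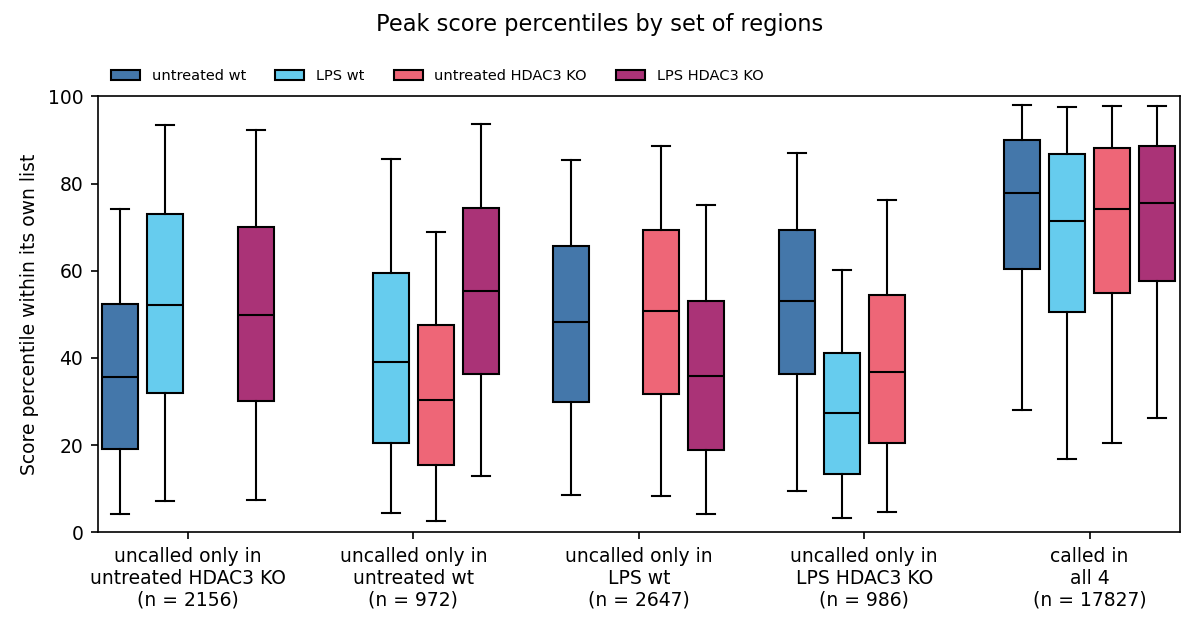
Score percentile of each region within its own list (vertical axis) for the regions uncalled in 1 library only and for those called in all 4. Boxes span the quartiles with the median as a line, whiskers the 5th to 95th percentile, and a missing box is the library without a call. The regions uncalled only in untreated HDAC3 KO have medians of 35.6 in untreated wt, 52.1 in LPS wt and 49.9 in LPS HDAC3 KO.

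Whether the call was missing followed the strength of the peak in untreated wt. Among regions called in the other 3 libraries whose untreated wt peak lay in the lowest 10 percentiles, 256 of 497 (51.5%, interval 47.0 to 56.0%) had no call in untreated HDAC3 KO. Between percentiles 40 and 50 it was 314 of 1388 (22.6%, 20.4 to 24.9%), and between 70 and 80 it was 123 of 3126 (3.93%, 3.28 to 4.68%). In the highest 10 percentiles 3 of 4457 regions lacked it (0.067%, 0.014 to 0.197%). The share fell in each successive bin. Ranked the same way in untreated HDAC3 KO, regions without a call in untreated wt made up 173 of 539 (32.1%, 28.2 to 36.2%) in the lowest bin, 144 of 1419 (10.1%, 8.63 to 11.8%) between percentiles 40 and 50, and 3 of 3820 (0.079%, 0.016 to 0.229%) in the highest. The share for untreated HDAC3 KO was above that for untreated wt in every bin but the highest, where the curves met. Between percentiles 70 and 80 the share for untreated wt was 1.13% (0.778 to 1.58%). Between 80 and 90 the shares were 1.21% (0.890 to 1.62%) for untreated HDAC3 KO and 0.236% (0.102 to 0.465%) for untreated wt. These rankings come from lists of unequal length, and the contrast was not tested.

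**Figure D2:**
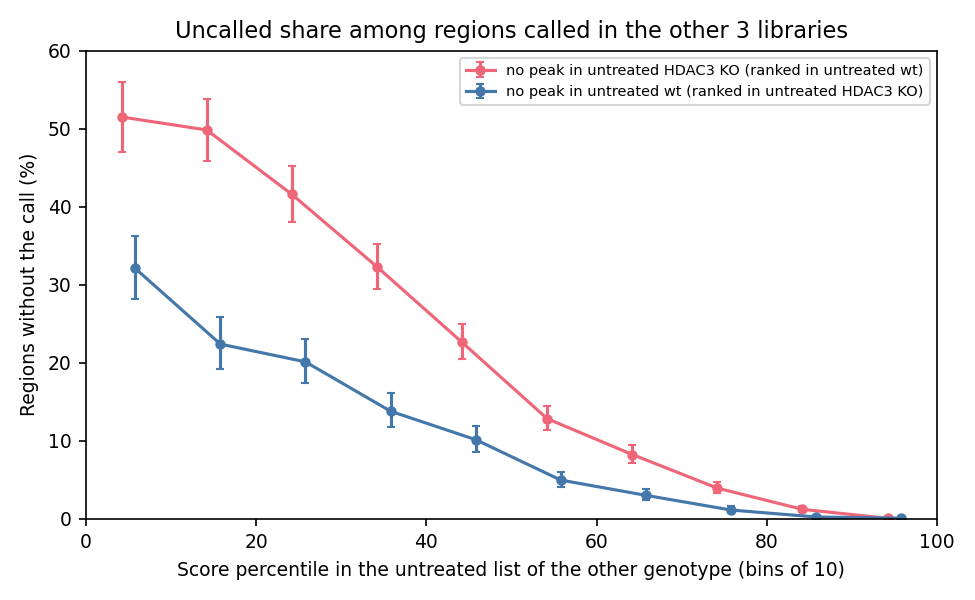
Percent of regions called in the other 3 libraries that lacked a call in untreated HDAC3 KO (ranked by their percentile in untreated wt) or in untreated wt (ranked in untreated HDAC3 KO), in bins of 10 percentiles. Points are shares, bars exact 95% intervals; the shares go from 51.5 to 0.067% and from 32.1 to 0.079%.

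Within the 2156 regions, LPS profiles differed. The percentile was higher in both LPS lists than in untreated wt in 1182 regions (54.8%), lower in both in 461 (21.4%), and mixed or tied in 513 (23.8%). Over all 19983 regions called in the same 3 libraries, it was higher in both LPS lists in 31.8% and lower in both in 46.5%. The list with the highest percentile was LPS wt for 897 regions, LPS HDAC3 KO for 798 and untreated wt for 461. In the 461 regions led by untreated wt, the median scores were 146 in untreated wt, 88.8 in LPS wt and 85.7 in LPS HDAC3 KO. A score at or above the list's median was reached in all 3 lists by 248 regions (11.5%) and in none by 551 (25.6%), beside 58% and 6.91% of those 19983. In the same lists, 90 regions (4.17%) were in the top 10% of both LPS lists, and 3 (0.139%) were in the top 10% of untreated wt, beside 13.7 and 22.3% of the 19983. The rule used calls of the same peaks, so nothing is read from these contrasts.

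Peaks at these regions were longer after LPS. Merged regions were 263 to 9190 bp wide with a median of 1114 bp. Peaks covered a median of 525 bp in untreated wt (quartiles 378 and 777 bp), 814 bp in LPS wt (548 and 1348 bp) and 892 bp in LPS HDAC3 KO (611 and 1411 bp). The median ratio to untreated wt was 1.49 for LPS wt and 1.61 for LPS HDAC3 KO, against 1.06 and 1.23 over all regions with a peak in both libraries. Covered length was at least 2-fold longer in LPS-treated than in untreated wt in 714 regions (33.1%) and at least 2-fold shorter in 56 (2.60%). Over all 22229 regions called in both wt libraries these shares were 10.9 and 6.53%. For LPS HDAC3 KO against untreated wt, 823 regions (38.2%) were at least 2-fold longer and 49 (2.27%) shorter, beside 17.2 and 2.66% of all regions called in both. The rule required a call in each of these libraries, so the contrast with all regions is a description. The mirror set, uncalled only in untreated wt, had longer peaks in both LPS libraries than in untreated HDAC3 KO. Its median covered length was 561 bp in untreated HDAC3 KO, 677 bp in LPS wt and 1015 bp in LPS HDAC3 KO. Its LPS wt value differs from the untreated one in genotype as well as LPS. Over whole lists the median peak length was 691, 722 and 836 bp in the same order. For regions uncalled only in untreated HDAC3 KO, a stricter rule required a library's peaks to cover at least 50% of a region. It gave ratios of 1.16 and 1.26, over 2057 regions of which 939 were among the 2156.

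The LPS-treated genotypes were compared at the same regions. The percentile was higher in LPS wt in 1137 regions and higher in LPS HDAC3 KO in 1019, with a median difference (wt minus HDAC3 KO) of 1.21 points and quartiles of -13.4 and 16.3. Regions called in all 4 libraries leaned the other way, with 7818 higher in LPS wt, 10009 higher in LPS HDAC3 KO, a median of -1.23 and quartiles of -11.7 and 4.62. Covered length was at least 2-fold longer in LPS HDAC3 KO than in LPS wt in 178 regions (8.26%) and at least 2-fold shorter in 104 (4.82%). Over all 25056 regions called in both LPS libraries the shares were 10.4 and 1.87%. In 2094 regions (97.1%) the peaks of all 3 pairs of libraries overlapped directly, not only through the merged region, close to the 98.9% of all 19983 regions called in these libraries.

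The 10 regions with the highest lowest percentile over the 3 lists were the strongest in all of them together. The first lay at chromosome 7, 73447747 to 73450289, with scores of 389.7 in untreated wt, 1196 in LPS wt and 1020.3 in LPS HDAC3 KO. A peak of untreated HDAC3 KO scored 333 began 3301 bp after it. The second, at chromosome 4, 62749775 to 62752357, scored 335, 1772 and 1324 in the same order, and the nearest untreated HDAC3 KO peak was 60160 bp away. Both regions stood above the 80th percentile in each list that called them.

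The third region, at chromosome 5, 58105854 to 58111896, scored 331 in untreated wt, 777 in LPS wt and 2019 in LPS HDAC3 KO. Its peaks covered 4514, 5293 and 5827 bp, in 7, 4 and 1 pieces, so it was covered for most of its 6043 bp in each of the 3 libraries. The nearest untreated HDAC3 KO peak was 3667818 bp away, a small one of 323 bp scored 69.6. In the 300 kb from 58100001 to 58400000 peaks covered 4.81 kb in untreated wt, 7.17 kb in LPS wt, 14.7 kb in LPS HDAC3 KO and none in untreated HDAC3 KO. That stretch was singled out after its values were seen. The third region was the only one of the set in it, and 8 of its 14 merged regions were called in LPS HDAC3 KO alone.

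The fourth, at chromosome 19, 34548348 to 34550893, scored 326, 869 and 626 in untreated wt, LPS wt and LPS HDAC3 KO. The fifth, at chromosome 5, 44258959 to 44260967, scored 344, 1447 and 532. The sixth, at chromosome 16, 49937264 to 49939168, scored 321, 651 and 550.3. At the last of these, peak length was alike in the libraries, at 1896, 1599 and 1905 bp, whereas at the fifth it was 1080, 2009 and 1347 bp.

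The seventh, at chromosome 19, 11884299 to 11886228, scored 306 in untreated wt, 1973 in LPS wt and 565 in LPS HDAC3 KO. The eighth, at chromosome 1, 138474235 to 138476468, scored 294, 827 and 826. The ninth, at chromosome 17, 83710609 to 83712979, scored 328, 506 and 464. The tenth, at chromosome 15, 53304105 to 53306936, scored 290.1, 1199 and 1105. All 10 regions had an untreated wt score of at least 290.1 and no untreated HDAC3 KO peak inside them, and the gap to the nearest such peak was 3301 to 3667818 bp.

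**Figure D3:**
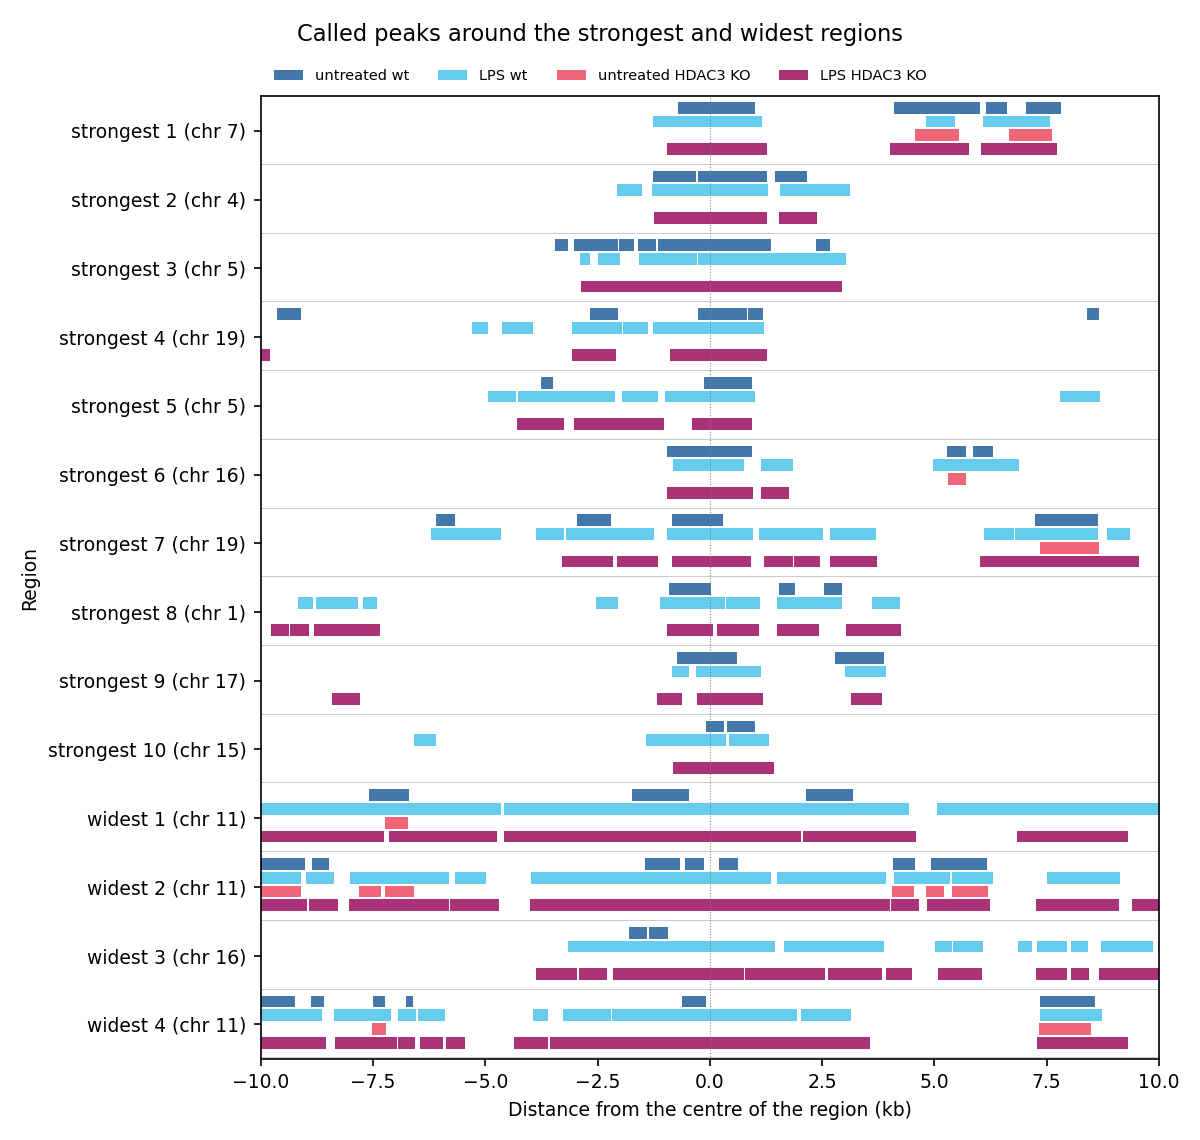
Called peaks of the 4 libraries within 10 kb of the centre of the 10 strongest regions (highest lowest percentile over the 3 lists with a call) and of the widest regions not among them; each bar is a peak and its length is to scale. The row of untreated HDAC3 KO is empty at every centre, with peaks of that library nearby in some maps, such as 37 bp from the second widest region.

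The 4 widest regions were covered for most of their length in both LPS libraries and for a smaller part in untreated wt. At chromosome 11, 83350998 to 83360187, peaks covered 2320 bp in untreated wt, 9033 bp in LPS wt and 9146 bp in LPS HDAC3 KO, with scores of 216, 3100 and 3100. At chromosome 11, 83467967 to 83475985, they covered 1606, 7779 and 8019 bp, with scores of 107, 2354 and 3100. At chromosome 16, 84700905 to 84708657, they covered 836, 6824 and 7427 bp, with scores of 59.5, 2837 and 1370.1. Untreated wt had 2, 3 and 2 separate peaks in these regions. At chromosome 11, 83555908 to 83563017, they covered 536, 6299 and 7110 bp, with scores of 52.6, 558 and 2386. The fifth widest was the third strongest region, on chromosome 5, which was covered for most of its length in untreated wt too.

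The 3 wide chromosome 11 regions lay in a stretch of 300 kb, from 83300001 to 83600000, which was singled out after its values were seen. It held 52 merged regions, of which 5 were uncalled only in untreated HDAC3 KO and 16 were called in all 4 libraries. Peaks covered 29.6 kb of it in untreated wt, 75.2 kb in LPS wt, 28.4 kb in untreated HDAC3 KO and 99.1 kb in LPS HDAC3 KO. Total coverage in the untreated libraries thus differed by little in this stretch. One of the wide regions ended 37 bp before an untreated HDAC3 KO peak scored 285, so it was set apart from that peak by a short gap only.

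Another such stretch, also singled out after its values were seen, lay at chromosome 19, 34500001 to 34700000. It held 50 merged regions, 7 of them uncalled only in untreated HDAC3 KO. The widest of the 7, at 34626087 to 34631783, scored 270.0 in untreated wt and 3100 in both LPS-treated libraries, and an untreated HDAC3 KO peak lay 411 bp before it. The region at 34643300 to 34646324 scored 89.3 in untreated wt, 1665 in LPS wt and 1362 in LPS HDAC3 KO, with the nearest untreated HDAC3 KO peak 17624 bp away. The other 5 scored 81.8 to 326 in untreated wt. Peaks covered 15.7, 34.4, 10.3 and 42.7 kb of the stretch in untreated wt, LPS wt, untreated HDAC3 KO and LPS HDAC3 KO.

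A group of 7 regions scored 3100 or more in both LPS-treated libraries, where 3100 was a tied value shared by 288 peaks of LPS wt and 370 of LPS HDAC3 KO. Their untreated wt scores were 64.5 to 289 with a median of 247, and their gaps to an untreated HDAC3 KO peak were 411 to 69120 bp. The one with the highest untreated wt score lay at chromosome 6, 127395234 to 127398959, where an untreated HDAC3 KO peak scored 1081 began 3993 bp after it. The one with the lowest lay at chromosome 1, 193264965 to 193270941, where the untreated wt peak was 330 bp long within 5772 bp covered in LPS wt and 5896 bp in LPS HDAC3 KO. These 7 were chosen after their values were seen.

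The opposite profile was seen at the 461 regions led by untreated wt. Chosen for the largest fall in percentile, the region at chromosome 19, 7654965 to 7656168, scored 401 in untreated wt, 69.2 in LPS wt and 52.8 in LPS HDAC3 KO. The region at chromosome X, 160317434 to 160318320, scored 335, 63.9 and 64.7. At both, the nearest untreated HDAC3 KO peak was over 10 kb away, at 21710 and 10674 bp. The LPS scores of these regions lay between 52.8 and 69.2, near the lowest listed score of 50.0.

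Some regions differed between the LPS-treated genotypes, and these were chosen for that difference. At chromosome 17, 80898055 to 80902698, the score was 81.6 in untreated wt, 1987 in LPS wt and 52.3 in LPS HDAC3 KO, with 403, 4644 and 296 bp covered. At chromosome 7, 81668809 to 81670982, the score was 276 in untreated wt, 55.2 in LPS wt and 721 in LPS HDAC3 KO, with 810, 426 and 2170 bp covered. The first was broad in LPS wt only and the second in LPS HDAC3 KO only, among the libraries with a call.

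The distance from a region to the nearest untreated HDAC3 KO peak varied from 2 to 5411740 bp with a median of 7775 bp (quartiles 1270 and 27708 bp). The median was 14542 bp when peaks within 500 bp were merged. It was 0 bp with scores from the list median up, with the 20000 peaks scored highest and with at least 50% coverage, since regions then counted as uncalled may overlap a peak of the full list. Where no untreated HDAC3 KO peak was allowed within 5000 bp it was 22762 bp. A peak of that library lay within 500 bp of 352 regions (16.3%) and within 5000 bp of 911 (42.3%), and 334 regions (15.5%) had none within 50000 bp. For regions uncalled only in untreated wt, the median gap to an untreated wt peak was 2604 bp, and 63.3% lay within 5000 bp. For LPS wt and LPS HDAC3 KO the medians were 6096 and 5334 bp. The median gap was longest for the set uncalled in untreated HDAC3 KO, a comparison that also depends on the number of peaks in each list. The median untreated wt score was 82.1 within 500 bp and 82.5 beyond 50000 bp, while in LPS wt it was 122 and 166. The covered length in LPS wt had medians of 685 and 824 bp in these classes.

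**Figure D4:**
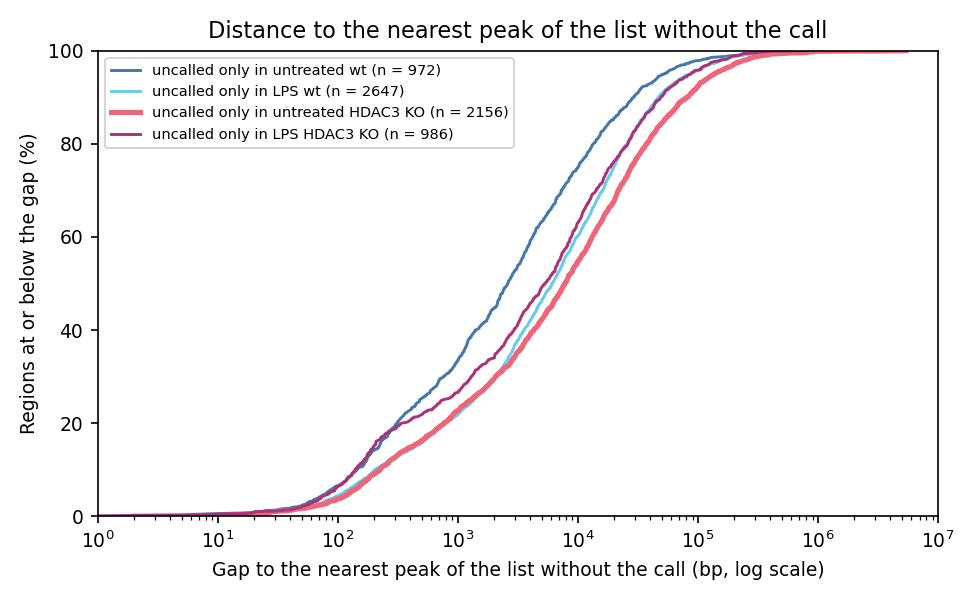
Cumulative percent of regions (vertical axis) by the gap to the nearest peak of the list that lacks the call (horizontal axis, log scale in bp), for the 4 sets of regions uncalled in 1 library only. The curve for untreated HDAC3 KO lies to the right of that for untreated wt, with medians of 7775 and 2604 bp.

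Of the regions farthest from any untreated HDAC3 KO peak, with a score at or above the median in all 3 lists and outside the 10 strongest, the first lay at chromosome 9, 5297922 to 5300424. It scored 179.6 in untreated wt, 863 in LPS wt and 922 in LPS HDAC3 KO, and its gap was 920741 bp. The region at chromosome 17, 45255806 to 45257645, scored 556, 151 and 180.4, with a gap of 312207 bp. Its untreated wt score was the highest of the set, and its LPS-treated scores were lower. The others were chromosome 12, 13569546 to 13570855 (gap 292586 bp), chromosome 4, 101951598 to 101952941 (290221 bp), and chromosome 18, 50574736 to 50576089 (286268 bp). The chromosome 4 region stood alone, with no merged region of any kind within 173486 bp.

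Some regions of the set lay side by side. Each region of the set had its next region counted on either side, giving 4307 neighbour positions. A region lying between members of the set was counted from each side. Of these positions 324 (7.52%) held a region of the set, against 3.45% for the neighbours of all merged regions. Regions called only in both LPS-treated libraries made up 11.1% of the neighbours, against 6.57%, and regions with a call in untreated HDAC3 KO 38.0%, against 52.3%. Another region of the set lay within 10000 bp of 436 regions (20.2%). In windows of 100 kb, 1399 windows held 1 region of the set and 8 held 5.

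Of the 8 windows with 5 regions, 2 each were on chromosomes 11 and 16. The window of chromosome 16 from 22100001 to 22200000 had calls over 5.43 kb in untreated wt, 14.0 kb in LPS wt, 2.22 kb in untreated HDAC3 KO and 17.1 kb in LPS HDAC3 KO. Only 1 of its 13 merged regions had a call in untreated HDAC3 KO. That of chromosome 16 from 24800001 to 24900000 had calls over 6.49, 19.4, 2.53 and 12.2 kb, with a call in untreated HDAC3 KO at 2 of 17 regions. That of chromosome 12 from 74800001 to 74900000 had calls over 9.05, 35.7, 4.12 and 30.7 kb, with such a call at 4 of 33 regions. The windows detailed here had the smallest shares of regions with a call in untreated HDAC3 KO among the 8. In the rest the share ran from 3 of 15 regions, on chromosome 5, to 5 of 14, on chromosome 9. Windows were chosen by their count of the set's regions, so low coverage in untreated HDAC3 KO follows in part from the choice. In all 8 windows coverage was lower in untreated HDAC3 KO than in the other 3 libraries.

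The share of regions with the call missing varied between chromosomes around the 10.8% of all. It was 17.5% (74 of 423 regions, interval 14.0 to 21.5%) on chromosome X, 15.9% (109 of 685, 13.3 to 18.9%) on chromosome 16 and 7.14% (98 of 1372, 5.84 to 8.64%) on chromosome 7. These chromosomes were picked as extremes after their values were seen. On chromosome X the share uncalled only in untreated wt was also above its overall 5.17%, at 9.59% (37 of 386, 6.84 to 13.0%). With the 20000 peaks scored highest in each list, chromosome X had 7.63%, below the 8.60% of all chromosomes. With peaks from the list median up it had 14.2%, above the 10.1% of all, and with presence from the median up and no listed untreated HDAC3 KO peak it had 3.09%, above 2.14%. Chromosome 16 stayed above and chromosome 7 below the overall share with the 20000 peaks scored highest, at 12.0 and 5.45%. For untreated wt, LPS wt and LPS HDAC3 KO the overall shares were 5.17, 12.9 and 5.24%. Chromosome 7 was below these too, at 4.43, 11.8 and 4.85%, and so was chromosome 16, at 4.32, 11.9 and 4.79%.

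**Figure D5:**
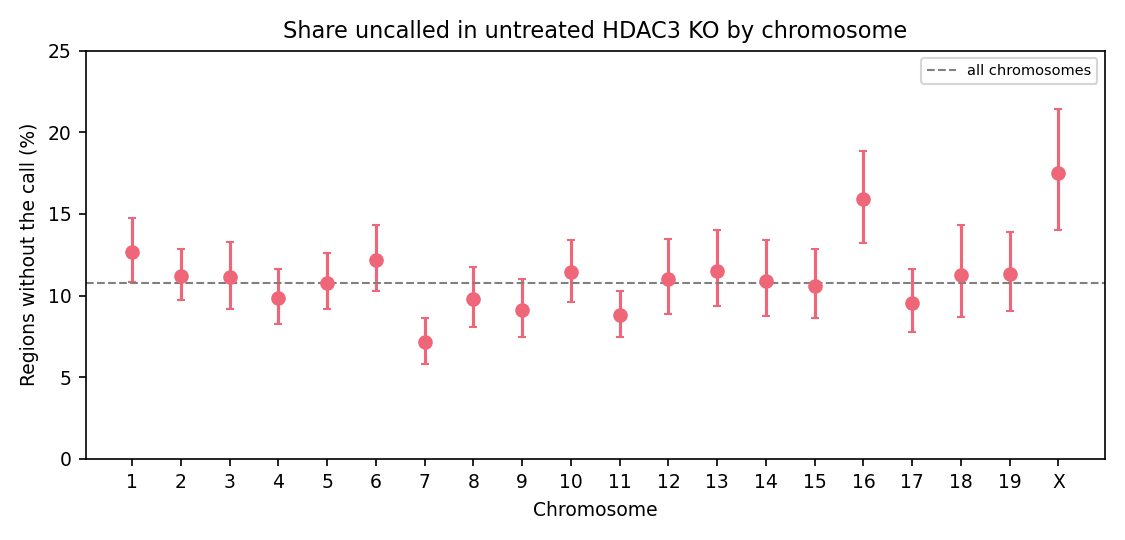
Percent of regions called in the other 3 libraries that had no call in untreated HDAC3 KO (vertical axis) on each chromosome, with exact 95% intervals; the dashed line is the 10.8% over all chromosomes. Chromosomes X and 16 are highest, at 17.5 and 15.9%, and chromosome 7 is lowest, at 7.14%.

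The rule separates regions with no untreated HDAC3 KO peak from those with a weak one. The member closest to an untreated HDAC3 KO peak, at chromosome 10, 129979275 to 129979887, lay 2 bp from a peak scored 115, and scored 61.7 in untreated wt, 62.2 in LPS wt and 134 in LPS HDAC3 KO. Just outside the rule, the region at chromosome 3, 53287236 to 53288178, was called in all 4 libraries with a score of 50.1 in untreated HDAC3 KO, beside 125, 163 and 158 in untreated wt, LPS wt and LPS HDAC3 KO. An untreated HDAC3 KO score under 60 was found in 531 of the 17827 regions called in all 4.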

How the data were processed

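Acetylated histone H4 was mapped by ChIP-seq in 4 libraries, 1 per group. Bowtie and the mm9 build are named in the submitters' processing notes. MACS called the peaks of each library against input, per the file headers; versions, settings and input libraries are not given in the sources used here. The score of each peak was used as the authors deposited it, and its scale is not stated. Peaks were merged with bedtools 2.31.1 (gap 0 bp), a region counting as called in a library with at least 1 peak in it. Coordinates are mm9, counted from 1. Intervals are exact (Clopper-Pearson, 95%, scipy 1.17.1). Scripts ran in Python 3.11.15 (pandas 2.3.3, numpy 2.4.6) with matplotlib 3.10.9.

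The set and the rules for naming regions (10 by their lowest percentile over the lists, 5 of the rest by distance, 5 by width) were chosen with earlier results of these data known; regions named otherwise are marked as such in the text. The gene and promoter tables in use are on GRCm38 and coordinates were not converted, so gene names, promoter shares, macrophage markers, the Hdac3 locus and sequence were not analysed here. On simulated lists 17 of 17 set counts and 200 of 200 distances were recovered over 62481 regions. Every simulated peak held its region's centre and the regions lay well apart. Short gaps, chained overlaps and several peaks of a library in a region were therefore not checked. The alternatives were higher score thresholds, equal list lengths, other overlap rules and autosomes only.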

Additional observations from a re-analysis of the deposited data

How the results depend on the processing

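The count of 2156 regions became 1175 when only the upper part of each list, from its median score, was used. It became 906 with the 20000 peaks scored highest per list, 1245 when no untreated HDAC3 KO peak was allowed within 5000 bp, and 248 when presence needed a score from the median up and absence meant no listed peak. Of the 1175 regions 927, and of the 906 regions 761, overlapped a lower-scored untreated HDAC3 KO peak of the full list. The share of 10.8% was 10.1, 8.60, 6.23 and 2.14% in these settings, in the order given. It was 8.86% with lists cut to 39550 peaks, 9.51% with peaks within 500 bp merged, 15.98% where peaks had to cover at least 50% of a region and 10.6% on autosomes alone. Under these last 4 settings the count stayed within 1.5 times of 2156, but the regions were not always the same. Of the 2156 regions, 1463, 1610, 939 and 2075 overlapped a region of the set under these settings, in the order given. With at least 50% coverage, 1118 of the 2057 regions overlapped a listed untreated HDAC3 KO peak. With lists cut to 39550 peaks, 170 of the 1635 regions did. Of 119 alternative values of the other quantities, 80 lay outside the interval of the value reported. Unknown depth and the lowest listed score near 50.0 limit every missing call. The promoter alternatives were not run, since no mm9 annotation was used here. No paired analysis was possible because each group had 1 library.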
